A study of Mus musculus with 8 samples.

Results

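The remote zone is the part of the left ventricle that lies away from the infarct and keeps its blood supply, and the comparison described here sets the remote zone of hearts lacking TIGAR (TKO) against that of WT hearts. It uses 2 of the 8 libraries of the series, 1 per genotype, and 12999 of the 16994 genes in the table, namely those whose mean over the 8 libraries reached 1 CPM, the count scaled to a common library total. The mice were male. At 16 weeks of age their left anterior descending coronary artery was tied off for good, which causes a myocardial infarction (MI), and the hearts were taken 4 weeks later. TKO mice lack *Tigar* in the whole body, so every cell type of the heart carries the deletion, and WT mice had the same operation. The other 6 libraries (infarct zone, border zone, and a left ventricle with no zone given and no operation named in its label, each in both genotypes) serve only to show where the remote zone differs. The study pooled RNA of 3 mice per group for its infarct zone libraries. How many mice gave RNA to each remote zone library is not stated in the sources used here, and neither is whether the zones of one genotype came from the same hearts.

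TIGAR lowers fructose-2,6-bisphosphate, the activator of the glycolytic enzyme phosphofructokinase, and so holds back glycolysis and favors the pentose phosphate pathway. After an infarct the spared ventricle takes over the work of the lost muscle. Its cardiomyocytes are stretched, return to genes of the fetal heart such as *Nppa* and *Myh7*, and grow, while fibroblasts lay down interstitial matrix and blood-derived macrophages enter the tissue. These processes are together called remodeling, and the genes below are ordered by the part they play in it.

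The WT remote zone library held 33748466 estimated counts and the TKO library 33799249, with TMM scaling factors of 0.902 and 0.891, so the counts of both libraries can be read side by side almost without correction. Ratios are TKO over WT on the TMM-scaled values after a prior count of 2, and the ranges in parentheses are exact 95% binomial intervals of the counts, which cover counting error only. With 1 library a side there is no replicate spread and no test of any ratio, and in bulk tissue fewer cells of a type and less RNA per cell cannot be told apart. *Tigar* (chromosome 6 of GRCm38, 127085116 to 127109557) had 1997 counts in WT and 87 in TKO, a ratio of 0.0450 (0.0351 to 0.0546), as the genotype labels say. The tissue carried its defining markers: *Myh6*, *Tnnt2*, *Actn2*, and *Ryr2* of cardiomyocytes lay between 600 and 5274 CPM in WT and between 791 and 7150 CPM in TKO, and the endothelial *Pecam1* was at 143 and 142 CPM.

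Both libraries also held atrial transcripts, and the WT library held more of them. *Bmp10*, a growth factor of atrial muscle, had 2134 counts in the WT and 305 in the TKO remote zone, against 6 to 34 in the other 6 libraries. *Sln* (sarcolipin, the atrial inhibitor of the calcium pump) stood at 80.9 CPM in WT and 24.4 in TKO, *Myl7* (atrial myosin light chain) at 172 and 67.5 CPM, and *Myl4* at 279 and 110 CPM, while in the other libraries these 3 genes lay between 0.280 and 34.6 CPM. Transcripts of lung epithelium differed as well. *Sftpc* (surfactant protein C) had 556 counts in WT and 35 in TKO, and *Scgb1a1*, which airway club cells secrete, had 359 and 10. The 6 lung genes tested summed to 38.2 CPM in the WT and 2.29 CPM in the TKO remote zone, and they reached 181 and 452 CPM in the WT and TKO infarct zones. In the left ventricle they summed to 2.08 CPM in WT and 1.97 in TKO. The part of the atrial and lung transcripts in the other differences between these libraries was not tested.

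Most genes were close between the genotypes. The median ratio was 0.993, and the middle 50% of genes lay between 0.884 and 1.10. At least 2-fold higher in TKO were 152 genes (1.17% of all genes tested), and at least 2-fold lower were 311 (2.39%). Few of them were abundant: 51 of the higher and 90 of the lower genes had at least 50 counts in each library, and 20 and 52 had 3 counts or fewer in 1 of them. Among the 1274 genes with 3000 counts or more, 2 were higher and 8 lower. Of the 152 higher genes, 53 were predicted genes, pseudogenes, or genes with no symbol, against 20 of the 311 lower ones.

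**Figure D1:**
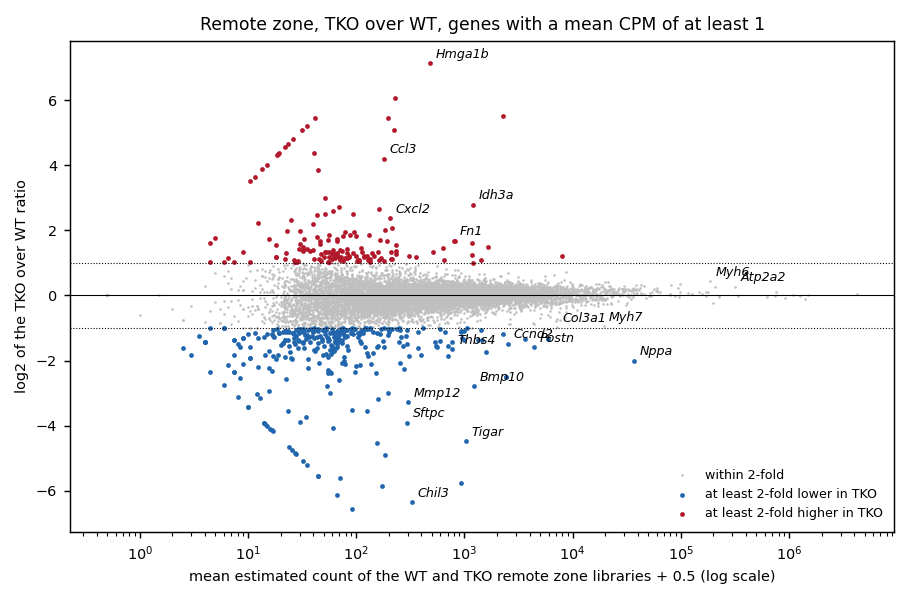
Each point is 1 of the 12999 genes, with the mean count of both remote zone libraries on the x axis (log scale) and the log2 of the TKO over WT ratio on the y axis; dotted lines mark 2-fold. The 311 genes at least 2-fold lower in TKO (blue) outnumber the 152 higher ones (red), and abundant genes such as *Nppa* and *Tigar* lie among the lower.

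Genes were grouped into 63 lists. A list is called lower or higher when its median ratio is at least 1.2-fold from 1 and at least 75% of its members lie on that side. By this measure 16 lists were lower in the TKO remote zone, none was higher, and 47 were neither. The lower lists were those of matrix and activated fibroblasts, wall stress, leukocytes, and cell division, together with atrial, epicardial, lymphatic, and lung genes.

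**Figure D2:**
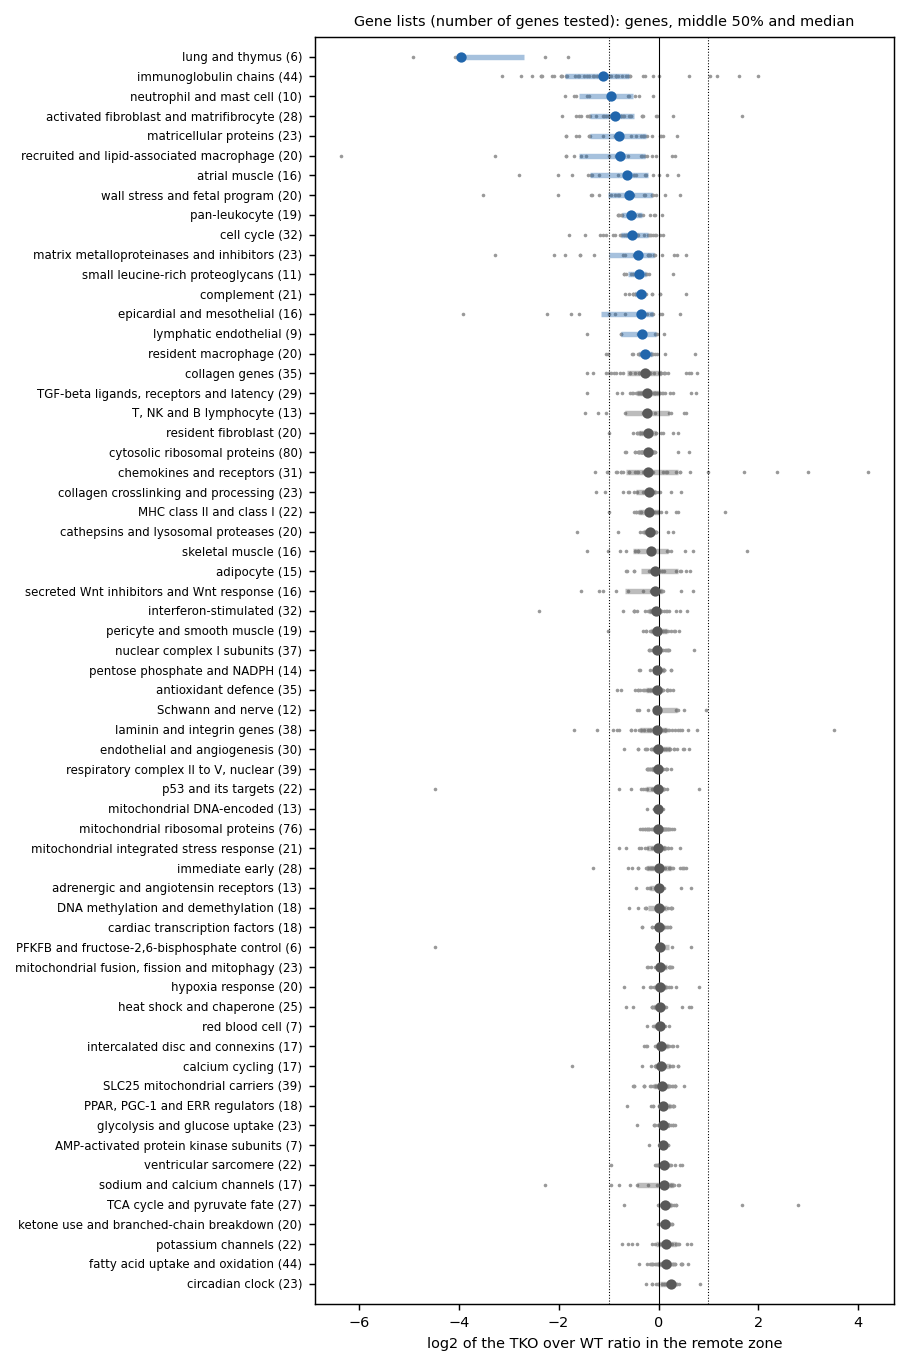
Gene lists are ordered by their median log2 ratio of TKO over WT in the remote zone (x axis), with each gene as a grey point, the middle 50% as a bar, and the median as a large dot. Blue marks the 16 lists called lower; the number of genes tested is in parentheses, and dotted lines mark 2-fold.

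Genes of activated fibroblasts and matrifibrocytes, the cells that build and maintain scar, were among the lists farthest from 1. Of 28 genes, 12 were at least 2-fold lower in TKO (2.39% of all genes were), 26 lay below 1 (52% of all genes did), and the median ratio was 0.549. *Thbs4* (thrombospondin 4, chromosome 13, 92751590 to 92794818), a matricellular protein of stressed heart, had 1163 counts in WT and 363 in TKO (ratio 0.317, 0.280 to 0.355). *Sfrp2*, a secreted Wnt modulator, had 821 and 274 (0.339, 0.293 to 0.387). *Cthrc1*, which marks the most activated fibroblasts, was sparse at 40 and 9 counts (0.263, 0.0970 to 0.476). The matrifibrocyte genes *Comp*, with 1937 and 734 counts, and *Cilp*, with 2112 and 800, had ratios of 0.384 and 0.383. *Ltbp2*, which binds elastic microfibrils, had 1136 and 413 counts, and *Ccn5*, a matricellular protein, 1431 and 548. *Lox*, which crosslinks collagen, had 404 and 167 counts (0.421, 0.347 to 0.502). *Col3a1*, a fibrillar collagen, was just inside 2-fold at 9506 and 4752 (0.505, 0.488 to 0.523), and *Col1a2* stood at 0.614. One member went far the other way. *Fn1* (fibronectin, chromosome 1, 71585520 to 71653200) had 381 counts in WT and 1212 in TKO, a ratio of 3.20 (2.86 to 3.62). Its ratio was 3.32 in the border zone but 0.512 at the infarct and 0.808 in the left ventricle. The WT values of *Fn1* were uneven, at 66.4 CPM in the left ventricle, 67.0 in the infarct, 16.4 in the border, and 12.5 in the remote zone. The TKO libraries lay between 34.3 and 54.5 CPM, so this ratio is less certain than its counting interval.

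**Figure D3:**
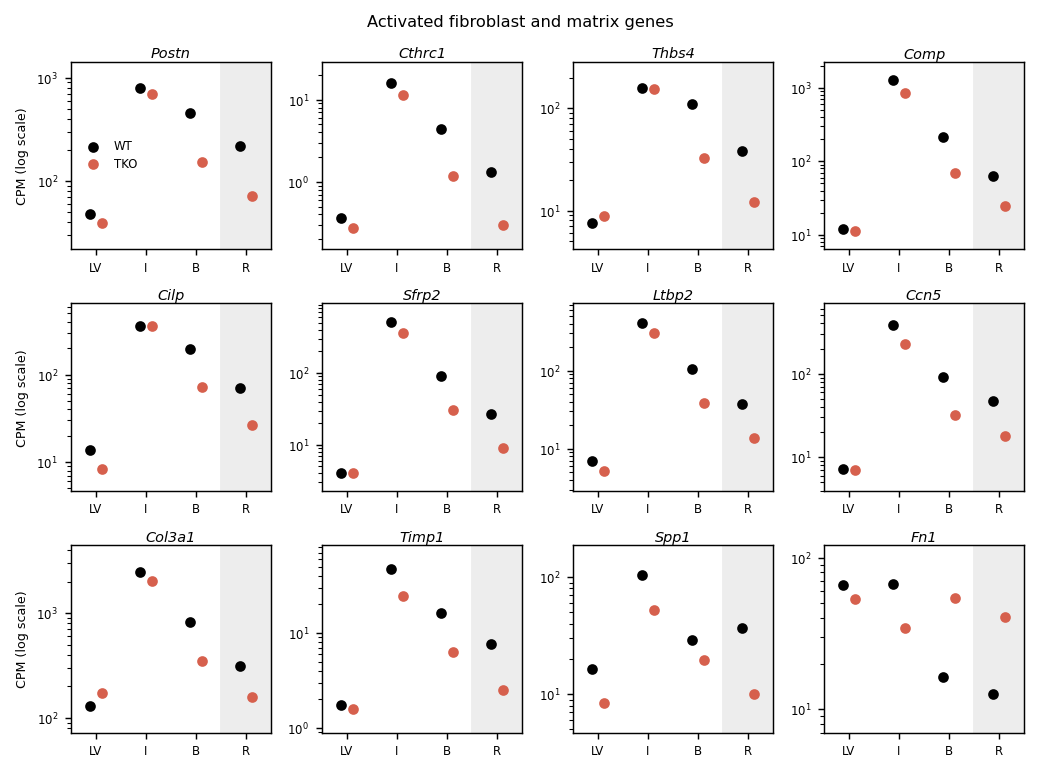
Each panel shows 1 gene with its TMM-scaled CPM (log scale) in the left ventricle (LV), infarct (I), border (B), and remote (R, shaded) zones, with 1 WT library (black) and 1 TKO library (red) per region. In the remote zone TKO lies below WT in each panel except *Fn1*, where 381 counts in WT face 1212 in TKO.

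Other matrix groups leaned the same way to differing degrees. Matricellular proteins, which signal to cells without bearing load, had a median of 0.576, and 8 of 23 were at least 2-fold lower (2.39% of all genes were). *Spp1* (osteopontin), which macrophages also make, had 1114 counts in WT and 304 in TKO (0.277, 0.242 to 0.313). *Ccn2*, a target of stretch and TGF-β, had 5707 and 3074 (0.545, 0.521 to 0.569), whereas *Sparcl1* had 10979 and 11290. Of 23 matrix metalloproteinases and their inhibitors, 6 were at least 2-fold lower, with a median of 0.755. They were *Mmp12*, *Adamts8*, *Mmp9*, *Timp1*, *Mmp3*, and *Adamts4*, from 546 and 54 counts for *Mmp12* (macrophage elastase) to 25 and 9 for *Adamts4*. *Timp1*, an inhibitor induced in remodeling, had 233 counts in WT and 76 in TKO (0.335, 0.251 to 0.429). The constitutive inhibitors *Timp2* and *Timp3* were nearer to 1, at 0.728 and 0.941. Small leucine-rich proteoglycans, which space collagen fibrils, had a median of 0.760 with 10 of 11 below 1 and none past 2-fold. *Bgn* (biglycan) stood at 0.616 and *Dcn* (decorin) at 0.794.

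Resident fibroblast genes differed less. Their median was 0.861 over 20 genes, with 16 below 1 (52% of all genes were) and none past 2-fold. *Gsn* (gelsolin) had 37152 counts in WT and 35691 in TKO. Collagen genes (35 tested) had a median of 0.834 and spread from 0.371 for *Col24a1*, at 6 and 1 counts (0.00366 to 1.39), to 1.71 for *Col6a6*. The basement membrane collagens *Col4a1* and *Col4a2* were at 0.796 and 0.834. TGF-β ligands, receptors, and latency proteins had a median of 0.846, with *Ltbp2* as the 1 gene past 2-fold among 29 and *Fstl1* (follistatin-like 1) at 5479 and 3034 counts. *Pdgfra*, which marks fibroblasts at large, had 1043 counts in WT and 998 in TKO. The fibroblast marker *Tcf21* was lower, at 368 and 272 (0.748, 0.636 to 0.876), as was *Dcn* at 0.794.

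Genes of wall stress and the fetal program were lower in the TKO remote zone, with a median of 0.665 over 20 genes. Of these, 5 were at least 2-fold lower (2.39% of all genes were) and 18 below 1 (52% of all genes were). *Nppa* (atrial natriuretic peptide, chromosome 4, 148000722 to 148002079), the best-known gene of the stretched ventricle, had 59713 counts in WT and 14718 in TKO, a ratio of 0.249 (0.245 to 0.254). *Myh7* (slow β-myosin heavy chain, chromosome 14, 54970684 to 54994626) had 25532 and 13083 (0.518, 0.507 to 0.529). *Tnni1*, the slow skeletal troponin I of the fetal heart, had 170 and 13 (0.0876, 0.0403 to 0.136). Other members were closer: *Nppb* (brain natriuretic peptide) stood at 0.702, *Acta1* (skeletal α-actin) at 0.639, and *Xirp2* at 0.964, while *Tnnt1* was higher at 1.36. *Nppa*, *Myl7*, *Myl4*, *Dkk3*, and *Hamp* are also in the atrial list, whose median was 0.643 over 16 genes with 7 at least 2-fold lower. Without these 5 genes, an alternative chosen after seeing the data, the wall stress median was 0.821 with 13 of 15 genes below 1 and *Tnni1* as the 1 gene past 2-fold. The atrial markers moved with *Nppa*, and their part in its ratio was not tested. In the border zone, where *Bmp10* had 26 counts in WT and 10 in TKO, the *Nppa* ratio was 0.280 and that of *Myh7* 0.317. The atrial list was lower there as well, with a median of 0.699, 12 of 16 genes below 1, and 5 at least 2-fold lower. *Myl4* stood at 27.9 CPM in the WT and 13.6 in the TKO border zone. The part of atrial transcripts in the border zone ratios was not tested either.

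The main myosin of the adult ventricle was higher in TKO. *Myh6* (fast α-myosin heavy chain, chromosome 14, 54941921 to 54966927), which lies next to *Myh7*, had 160486 counts in WT and 215284 in TKO, a ratio of 1.36 (1.35 to 1.36). The 22 ventricular sarcomere genes had a median of 1.07, and 16 were above 1. *Actc1* (cardiac α-actin) had 191327 and 226265 counts, *Tpm1* (tropomyosin) 231758 and 221274, and none but *Myh7* was below 0.9. No member was at least 2-fold apart. Because *Myh6* was higher while *Myh7* and *Nppa* were lower, their promoters (RefSeq, GRCm38.p6, 250 bases before to 50 after the start) are shown in full. Capitals mark GGAATG, the core of the element bound by TEAD factors in muscle genes, searched on both strands. The element was found once in *Myh6* (chr14:54966558-54966857, minus strand) and once in *Myh7* (chr14:54994577-54994876, minus strand, the first of 2 listed starts) but not in *Nppa* (chr4:148000472-148000771, plus strand), and 14.7% of the 32851 listed promoters hold it.

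Myh6: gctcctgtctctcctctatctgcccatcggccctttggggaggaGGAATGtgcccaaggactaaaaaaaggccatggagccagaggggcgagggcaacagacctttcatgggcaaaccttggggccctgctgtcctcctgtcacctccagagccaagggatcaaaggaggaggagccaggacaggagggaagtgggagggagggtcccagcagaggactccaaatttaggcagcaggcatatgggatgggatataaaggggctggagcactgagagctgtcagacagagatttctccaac

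Myh7: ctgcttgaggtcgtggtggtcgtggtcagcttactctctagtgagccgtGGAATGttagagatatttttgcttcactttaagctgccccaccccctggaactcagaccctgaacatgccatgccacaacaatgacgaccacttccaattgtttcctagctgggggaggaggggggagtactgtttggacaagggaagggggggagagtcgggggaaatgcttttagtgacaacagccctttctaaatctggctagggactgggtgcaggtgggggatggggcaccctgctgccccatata

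Nppa: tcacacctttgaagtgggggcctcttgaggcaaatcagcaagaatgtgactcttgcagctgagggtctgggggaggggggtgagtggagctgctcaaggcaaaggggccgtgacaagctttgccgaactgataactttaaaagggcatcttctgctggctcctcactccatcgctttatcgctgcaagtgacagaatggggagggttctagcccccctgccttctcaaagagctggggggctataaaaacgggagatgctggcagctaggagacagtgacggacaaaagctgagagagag

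Calcium and ion channel genes were close to even as groups. Over 17 calcium cycling genes the median was 1.04 and 9 were above 1, with *Ryr2* (the release channel) at 1.32 (18263 and 23804 counts), *Hrc* at 1.32, and *Atp2a2* (the SERCA2a pump) at 1.21 (291093 and 347462 counts). *Sln* was the 1 member past 2-fold, at 0.302. Potassium channel genes had a median of 1.11, from *Kcne1* with 254 and 150 counts to *Kcnj11*, a pore subunit of the ATP-sensitive channel, with 63 and 99. *Kcnip2*, which supports the transient outward current, stood at 1.29 and *Abcc9* at 1.33. The 17 sodium and calcium channel genes had a median of 1.08, and 10 were above 1. *Cacna1h*, a T-type calcium channel of fetal and stressed myocytes, was at 0.208 with 459 counts in WT and 93 in TKO (0.162 to 0.256). Its ratio was 0.244 in the border zone, 0.679 in the left ventricle, and 0.361 in the infarct zone.

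**Figure D4:**
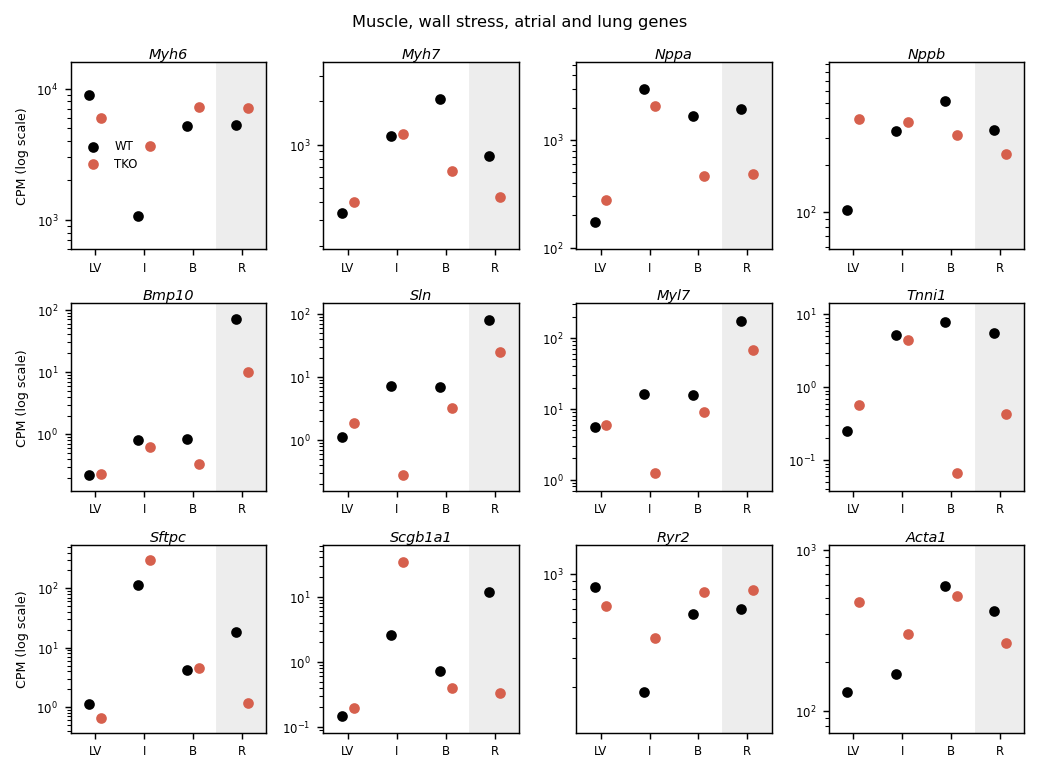
Each panel shows 1 gene with its TMM-scaled CPM (log scale) in the left ventricle (LV), infarct (I), border (B), and remote (R, shaded) zones, with 1 WT library (black) and 1 TKO library (red) per region. *Bmp10*, *Sln*, and *Myl7* are highest in the remote zone of both genotypes, and *Myh6* and *Ryr2* are the panels where TKO lies above WT there.

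Genes of fuel breakdown were slightly higher, with few members far from 1, while those of the respiratory chain were not. Nuclear genes of complex I had 24 of 37 members below 1, those of complexes II to V 23 of 39, and mitochondrial DNA-encoded genes 7 of 13. Of all genes 52% were below 1, and the medians of these 3 lists were near 1, at 0.977, 0.989, and 0.991. Fatty acid uptake and oxidation had a median of 1.12 over 44 genes, 32 of them above 1, where 47.9% of all genes were. *Lpl* (lipoprotein lipase) had 86875 counts in WT and 108721 in TKO, a ratio of 1.26, *Hadhb* of the mitochondrial trifunctional protein stood at 1.15, and *Fabp3* at 98182 and 94897 counts. *Slc27a1*, a fatty acid transporter, was the highest at 1.51, and *Angptl4*, which inhibits lipoprotein lipase, the lowest at 0.767 (0.563 to 1.03). Of 27 genes of the TCA cycle and pyruvate fate, 25 were above 1 with a median of 1.09, among them *Ogdh* at 1.23. *Idh3a* and *Mdh1* were past 2-fold there, at 6.90 and 3.18, but their counts were uneven across the 8 libraries (305 to 2095 for *Idh3a*). Ketone use and branched-chain amino acid breakdown had a median of 1.10 over 20 genes, 19 of them above 1, with *Ivd* highest at 1.21. These lists did not pass 1.2-fold and were called neither. The regulators leaned with them: *Ppara* stood at 1.24 and *Ppargc1a* at 1.22, against 0.644 for *Pparg*.

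The pathway that TIGAR controls was little different. Glycolysis and glucose uptake had a median of 1.06 over 23 genes, from 0.742 for the lactate exporter *Slc16a3* to 1.26 for *Pygm* (muscle glycogen phosphorylase), and *Gapdh* had 88364 and 87255 counts. Among the enzymes that make or remove fructose-2,6-bisphosphate, *Pfkfb2*, the heart isoform of the kinase, had 519 counts in WT and 808 in TKO (1.57, 1.41 to 1.76). *Pfkfb2* stood at 1.07 in the border zone, 0.688 in the left ventricle, and 1.47 in the infarct zone. *Pfkfb1* had 389 and 401 counts. Pentose phosphate and NADPH genes had a median of 0.978 over 14, from *Me2* at 0.759 to *Shpk* with 58 and 69 counts. p53 targets other than *Tigar* ranged from *Gdf15* at 0.579 to *Pmaip1*, where 13 and 24 counts give an interval of 0.913 to 3.99.

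Several leukocyte lists were lower in the TKO remote zone. T, NK, and B lymphocyte genes (median 0.850, 9 of 13 below 1) and MHC genes (0.880, 16 of 22 below 1) were called neither. All but 1 of 19 pan-leukocyte genes lay below 1 (median 0.684), none past 2-fold, with *Laptm5* at 984 and 663 counts and *Lcp1* at 978 and 733. The pan-leukocyte median was also 0.606 in the left ventricle, 0.647 in the infarct zone, and 0.668 in the border zone. Recruited and lipid-associated macrophages, which come from blood monocytes, showed a wider gap, with a median of 0.583. Of 20 genes, 8 were at least 2-fold lower (2.39% of all genes were) and 18 below 1. The 3 members with the most counts were nearer to 1, with *Lpl* at 1.26, *Ctsd* at 0.961, and *Apoe* at 0.828. The summed counts of the list gave a ratio of 1.09. *Chil3* (chromosome 3, 106147554 to 106167564), a chitinase-like protein of alternatively activated macrophages, had 651 counts in WT and 6 in TKO (0.0122, 0.00341 to 0.0204). *Mmp12* stood at 0.103 (0.0741 to 0.132) and *Gpnmb*, a lysosomal glycoprotein of foamy macrophages, at 0.342 with 1047 and 353 counts. *Itgax* (CD11c) had 92 and 27 counts. Lung tissue carries macrophages that express some of these genes, and *Chil3*, *Mmp12*, and *Itgax* were lower beside the lung genes. The share of their difference that goes with lung tissue was not tested. Genes of resident macrophages were nearer to 1, with a median of 0.823, 18 of 20 below 1, and 2 past 2-fold: *Vsig4* at 98 and 46 counts and *Cx3cr1* at 129 and 62. *Lyve1* was at 831 and 805, and *Timd4* was higher at 43 and 72 counts (1.66, 1.14 to 2.53).

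Neutrophil and mast cell genes were few in counts, and 5 of 10 were at least 2-fold lower (2.39% of all genes were), with a median of 0.517. *S100a9*, a calprotectin subunit, had 128 counts in WT and 38 in TKO, and its partner *S100a8* had 96 and 29. The mast cell chymase *Cma1* had 43 and 15. Complement genes had a median of 0.781 with 18 of 21 below 1 and none past 2-fold, from *Cfb* at 0.624 to *Cfd* at 1.46. Of 44 immunoglobulin chain genes, 24 were at least 2-fold lower (2.39% of all genes were), and 20 had a counting interval below 1 (21.9% of all genes did). The median was 0.461, or 0.502 with the 4 genes at 0 in 1 library set at their bound. Some of the lower genes were sparse, such as *Ighv9-3* with 15 and 0 counts and *Ighv1-64* with 15 and 1. *Igha*, the IgA constant region, had 1343 counts in WT and 538 in TKO, and *Igkc* 861 and 325. Their median was 0.237 in the left ventricle, 0.720 in the infarct zone, and 0.495 in the border zone. Interferon-stimulated genes (32) had a median of 0.966, with 13 above 1 and 19 below.

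A few chemokine genes lay far from 1, on both sides, and the list was called neither. Over 31 chemokines and receptors the median was 0.869. At least 2-fold lower were 3 (2.39% of all genes were), and 4 were at least 2-fold higher (1.17% of all genes were). The receptors *Ccr1* and *Cx3cr1* and the B cell attractant *Cxcl13* were the lower ones, at 90 and 36, 129 and 62, and 39 and 18 counts. The 4 higher genes are products of acutely stimulated macrophages or stroma. *Ccl3* (chromosome 11, 83647844 to 83649355) had 17 counts in WT and 341 in TKO (18.3, 12.5 to 35.2). *Ccl4* had 10 and 92 (7.96, 4.83 to 20.0). *Cxcl2* (chromosome 5, 90903871 to 90905938), which draws neutrophils, had 66 and 344 (5.15, 4.04 to 6.96), and *Cxcl5* 77 and 254 (3.28, 2.57 to 4.36). For *Ccl3* the left ventricle held 409 counts in WT and 352 in TKO, the infarct zone 152 and 216, and the border zone 57 and 406. For *Ccl3*, *Ccl4*, and *Cxcl2* the WT remote zone was the lowest of the 8 libraries. *Cxcl5* had a ratio of 0.183 in the border zone and 28.6 in the left ventricle, so its direction was not shared. Of 28 immediate early genes, which many stimuli induce within minutes, 14 were above 1 and 14 below.

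The promoters of *Cxcl2* (chr5:90903649-90903948, plus strand) and *Ccl3* (chr11:83649329-83649628, minus strand) are printed because these genes had some of the widest ratios upward. Capitals mark a core of the sites bound by NF-κB, GGGA and TTCC with any 2 bases between, searched on both strands. Overlapping matches were found in *Cxcl2* and none in *Ccl3*, and 1.47% of the 32851 listed promoters hold these letters.

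Cxcl2: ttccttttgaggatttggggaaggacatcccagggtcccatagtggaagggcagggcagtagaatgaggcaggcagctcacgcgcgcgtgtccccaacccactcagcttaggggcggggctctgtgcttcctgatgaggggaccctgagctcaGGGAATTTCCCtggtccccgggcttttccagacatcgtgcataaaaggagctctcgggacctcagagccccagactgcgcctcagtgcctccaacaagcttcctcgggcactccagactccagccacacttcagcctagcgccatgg

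Ccl3: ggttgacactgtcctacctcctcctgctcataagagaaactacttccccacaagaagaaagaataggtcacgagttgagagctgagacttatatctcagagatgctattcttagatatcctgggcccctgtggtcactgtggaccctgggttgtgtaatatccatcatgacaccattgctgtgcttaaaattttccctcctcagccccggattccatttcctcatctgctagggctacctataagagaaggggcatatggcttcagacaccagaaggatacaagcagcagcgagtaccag

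**Figure D5:**
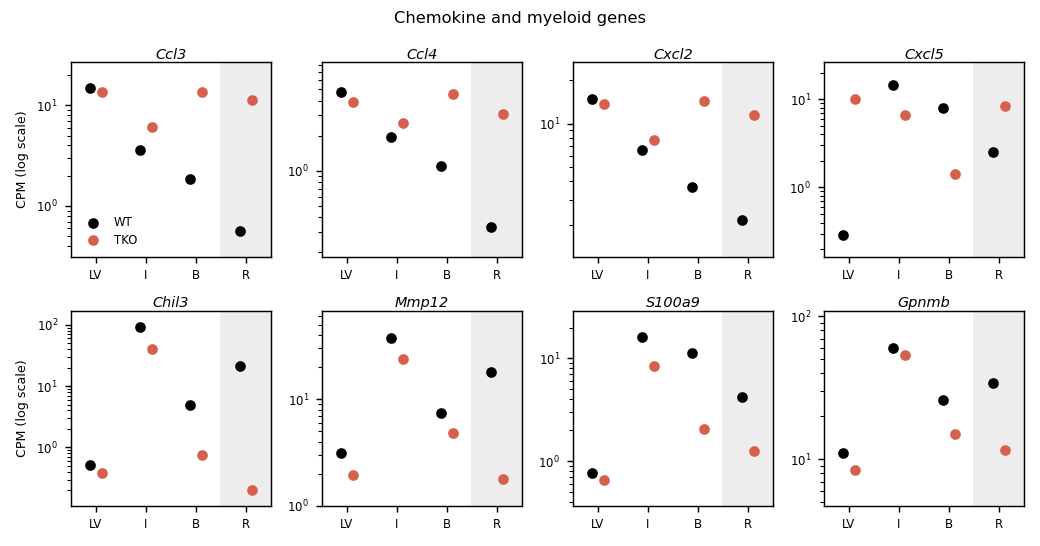
Each panel shows 1 gene with its TMM-scaled CPM (log scale) in the left ventricle (LV), infarct (I), border (B), and remote (R, shaded) zones, with 1 WT library (black) and 1 TKO library (red) per region. In the remote zone the 4 chemokines are higher in TKO and *Chil3*, *Mmp12*, *S100a9*, and *Gpnmb* lower.

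Genes of cell division were lower in TKO, with a median of 0.691 over 32 genes. Of these, 30 were below 1 (52% of all genes were) and 5 at least 2-fold lower (2.39% of all genes were). *Ccnd2* (cyclin D2) carried the most counts, 3766 in WT and 1337 in TKO (0.359, 0.337 to 0.382). *Ccnb1* (cyclin B1) had 92 and 25, *Cdk1* 94 and 42, *Mcm5* 87 and 37, and *E2f1* 111 and 52. *Ccnd1* was even at 2444 and 2473. *Ccnd2* was also below 1 in the other regions, at 0.318 in the border zone, 0.631 in the left ventricle, and 0.480 in the infarct zone. Cytosolic ribosomal protein genes were lower by little but nearly all together, with 78 of 80 below 1 and a median of 0.864. *Rpl3l*, the muscle form of a ribosomal protein, was the exception at the top with 1.53, and *Rps2* stood at 0.828.

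Epicardial and mesothelial genes had a median of 0.782, and 4 of 16 were at least 2-fold lower (2.39% of all genes were): *Msln*, *Upk1b*, *Upk3b*, and *Krt8*. *Upk3b* had 183 counts in WT and 59 in TKO, and *Msln* 27 and 0, which makes it at least 8.91-fold lower against the floor of 3 counts. Lymphatic endothelial genes had a median of 0.799 with 1 of 9 past 2-fold (*Nts*, 39 and 13 counts), and *Prox1*, their master regulator, had 1441 and 1540. Endothelial, pericyte, Schwann cell, red cell, and adipocyte lists had medians between 0.947 and 1.03. The circadian clock list, whose genes follow the time of day, had a median of 1.18 with 17 of 23 genes above 1. It ran from *Bhlhe41* at 0.838 to *Arntl* at 1.78, the latter with 23 counts in WT and 42 in TKO. *Dbp* and *Per2*, whose levels swing widely over the day, stood at 0.916 and 1.32.

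The 15 highest ratios by the counting bound nearest 1 belonged mostly to pseudogenes, near-identical copies, and genes at 0 in WT. *Hmga1b*, a copy of *Hmga1*, had 5 counts in WT and 962 in TKO, and its WT libraries of the other regions held 18 to 30 against 508 to 795 in TKO. The pseudogenes *Rps2-ps10*, *Rps2-ps6*, *Rnps1-ps*, and *Atp6v0c-ps2* had ratios of 33.9 to 66.4 in the remote zone and were also higher in TKO in each other region. At the low end, *Rnaset2b* had 1812 counts in WT and 31 in TKO, with ratios of 0.0192 in the border zone, 0.0275 at the infarct, and 0.727 in the left ventricle, where the TKO library held 1231. Kallisto divides reads among near-identical transcripts, so these values are uncertain. Another set had no counts in 1 remote zone library and uneven counts elsewhere, such as *Acap2*, with 181 in WT and 0 in TKO, and *Pan2*, with 0 and 82. *Eed*, a subunit of the Polycomb complex that methylates histone H3, had 344 counts in WT and 4 in TKO, while its other 6 libraries held 223 to 324. *Gria2*, a glutamate receptor subunit, had 2 and 78.

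Whether the remote zone genotype difference departs from that of the other regions was tested with edgeR's quasi-likelihood test of the genotype-by-remote zone term over all 8 libraries. It called 0 of 12999 genes at an adjusted p of 0.05 (223 had an unadjusted p under 0.05, and the lowest adjusted p was 0.457), and it takes the other 3 regions as if they were replicates. The DESeq2 Wald test of the same term called 12 (0.0923%), of which 2 were higher and 10 lower in the TKO remote zone than the other regions would give. *Mmp12* had the lowest p of edgeR and was among the 12, which also held *Chil3* and the lung genes *Sftpc*, *Sftpa1*, and *Slc34a2*. These were picked out after their values were seen. *Mmp12* had ratios of 0.635 in the left ventricle, 0.646 in the infarct zone, and 0.656 in the border zone, against 0.103 in the remote zone.

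By number, the remote zone shared more of its 2-fold genes with the border zone than with the infarct zone or the left ventricle. Taken as a share of each region's own lower genes, the border zone (31.4%) and the infarct zone (30.1%) were close. Of the 311 genes at least 2-fold lower in the remote zone, 133 (42.8%) were also at least 2-fold lower in the border zone, which is 31.4% of the 424 lower there (3.26% of all genes). The infarct zone shared 56 of them (18.0%; 30.1% of its 186, which are 1.43% of all genes) and the left ventricle 75 (24.1%; 15.9% of its 471, or 3.62%). Of the 152 higher genes, 40 (26.3%) were also higher in the border zone, where 1.23% of all genes were. The infarct zone shared 22 of them (2.4% of all genes were higher there) and the left ventricle 30 (1.98%). At least 2-fold the opposite way were 22 of the 152 in the border zone, 20 in the left ventricle, and 14 in the infarct zone. Of the 311 lower genes, 18, 31, and 18 were, in the same order. Among the activated fibroblast genes, 18 of 28 were at least 2-fold lower in the border zone, 1 in the left ventricle, and 1 in the infarct zone, with medians of 0.441, 0.943, and 0.717. Wall stress genes had medians of 0.568 in the border zone, above 1 in the left ventricle, and 0.936 in the infarct zone. Cell cycle genes had medians of 0.700, 0.969, and 0.791 in the same order. These regions use different libraries, but whether they share hearts is not known.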

How the data were processed

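RNA from each region of WT and TKO hearts was sequenced, 1 library per genotype and region. The authors used Trim Galore 0.6.5 for trimming and kallisto 0.46 for quantification, used tximport to sum transcripts by gene, and deposited estimated counts, which are whole numbers in the table. They are unnormalized, and the 8 libraries held 27429240 to 33799249 counts. The submitters' notes name the mm10 build and edgeR 3.34.1. Pseudoalignment divides reads among similar transcripts, so copies and pseudogenes are uncertain.

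From these counts, TMM-scaled CPM were computed with edgeR 4.0.16 (R 4.3.3) over all 8 columns, and tables with Python 3.11.15. A ratio uses a prior count of 2, and a gene is 2-fold apart when this ratio is. Exact (Clopper-Pearson) 95% intervals come from the raw counts of the pair. Reads carry no molecular identifiers, so they are not independent molecules and the intervals cover counting error only. A count of 3 is the floor, 0.0986 CPM in the WT and 0.0996 CPM in the TKO remote zone. With 1 library per group no test of the remote zone ratio was possible, and a genotype term over all 4 regions was not fitted. Whether the remote zone departs from the other regions was asked by a quasi-likelihood test in edgeR, its p-values adjusted by Benjamini-Hochberg, and DESeq2 1.42.0 (Wald test) served as the alternative. On simulated counts of 12999 genes for this comparison, the departure test recovered 16 of 100 genes changed 2-fold and 86 of 100 changed 4-fold, and called 4 unchanged genes. The 2-fold call of the ratio recovered 46 and 97 of 100, and called 49 unchanged genes. The simulation used a fixed dispersion of 0.02 and gave both genotypes the same mean in each region, apart from the changed genes. It held no genotype difference that varied among the other regions, so these rates need not hold for the data.

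The genes named are *Tigar*, the 15 highest and 15 lowest by the interval bound nearest to 1 among genes with at least 30 counts in the higher library, and, in each list, the ends, up to 8 members past 2-fold, and the 3 with the most counts, with markers that define cell types. *Nppb*, *Pfkfb1*, and *Per2* lie outside this rule and were chosen after their values were seen. The comparison, the 63 lists, and the tests were chosen with earlier results of these data known. *Ighmbp2*, a helicase whose symbol resembles an immunoglobulin's, was kept out of that list. Coordinates are of GRCm38, and promoter sequences are from RefSeq (GRCm38.p6). A few genes are not reported here. Other scalings, prior counts, and filters were tried as alternatives.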

Additional observations from a re-analysis of the deposited data

Results flagged for a closer look

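The genes below had a TKO over WT ratio at least 2-fold from 1 in the remote zone and at least 2-fold the other way in another region, and the lists were lower in the remote zone and higher in another region by the measure used for lists. The difference between the 2 regions named was not tested. The test of the remote zone against the other 3 regions together called *Sftpc* and *Nrbp2* among these genes with DESeq2 and called none with edgeR.

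Among genes lower in the TKO remote zone, *Scgb1a1* (0.0333), *Sftpc* (0.0669), and *Ager* (0.206), all lung genes, were higher in the TKO infarct zone, at 13.1, 2.57, and 2.22. The lung list as a whole had a median of 0.0646 in the remote zone and 2.29 in the infarct zone. *Krt8*, a keratin of the epicardium, was at 0.296 and, in the left ventricle, 2.78. The wall stress list had a median of 0.665 in the remote zone, against a value above 1 in the left ventricle.

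Other genes had no counts in 1 of the remote zone libraries. *Nrbp2* had a ratio of 0.0143 there, against 60.1 in the left ventricle and 9.08 in the border zone, and the infarct zone held 7 counts in WT and 202 in TKO. *Acap2* was at 0.0105 and, in the border zone, 7.03. *Map9* and *Syde2* were both at 0.0215, with 35.7 for *Map9* in the left ventricle and 2.26 for *Syde2* in the infarct zone. *Cep57l1* was at 0.0272 against 2.01 in the left ventricle, and *Rinl* at 0.0351 against 36.7 in the infarct zone. These ratios depend on the prior count and are no bounds.

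Among genes higher in the TKO remote zone, *Cxcl5* was at 3.28 there but 0.459 in the infarct zone and 0.183 in the border zone. *Ap3m2* was at 27.7 (0.497 in the border zone), *Adam9* at 23.5 (0.0600 in the infarct zone), and *Slc37a4* at 20.9 (0.0305 in the border zone), each with no counts in the WT remote zone. *Gria2*, with 2 and 78 counts, was at 20.6 (10.6 to 331) against 0.207 in the left ventricle, and *Igkv16-104*, an immunoglobulin variable segment, at 3.96 against 0.0139 there.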

How the results depend on the processing

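The counts of genes 2-fold apart (152 higher, 311 lower) depended most on the filter. With no filter beyond 1 count in either remote zone library they were 741 and 863, and with at least 50 counts in each library 51 and 90. With predicted genes, pseudogenes, and genes without a symbol left out, an alternative chosen after seeing the data, 99 were higher. Other scalings gave 143 to 153 higher and 301 to 316 lower, and prior counts of 0.5 and 10 gave 159 and 124 higher and 349 and 217 lower. The test of departure called 0 genes in edgeR under each scaling, filter, and left-out region tried and 12 in DESeq2. With no filter, the list of lung genes, which then also holds thymus genes (0.284, with 8 of 11 below 1), and the immunoglobulin list (0.597, with 70 of 100 below 1) were no longer called lower. With 50 counts in each library, the metalloproteinase (0.863), lymphatic (0.949), and epicardial (0.875) lists were not either. No named ratio at least 2-fold from 1 changed side, and those of 21, 5, and 3 of 361 genes left their counting interval with total counts, DESeq2 size factors, and TMM over the pair. No paired analysis was possible because the remote zone gives 1 WT and 1 TKO library with no shared replicate number. Genotype cannot be told apart from what else differed between these libraries, including how much atrium or lung they held, and genes under 100 counts are the least certain.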
